A study of Mus musculus with 5 samples.

Results

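The cell cycle and DNA replication genes were followed through 5 RNA-seq libraries of the uterine luminal layer in early mouse pregnancy. The group was taken by gene symbol and holds 50 genes, from the D-type cyclins that act in G1 to the proteins that separate chromosomes in mitosis. All 50 were found among the 23420 genes of the count table, and all 50 passed a filter of a mean level of 1 CPM or more over the libraries (CPM being counts per library size of 1000000), as did 12918 genes in all. The rule is a list of symbols and sets no threshold on a measured value.

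All libraries came from wild-type C57BL/6N females, with the day of the vaginal plug taken as day 1 of pregnancy, and the luminal layer was cut out of frozen uterine sections by laser microdissection. There was 1 library for day 3 morning, 1 for day 4 morning, 1 for day 4 evening just before attachment, and 2 for day 5 morning. Of the day 5 libraries, 1 was cut away from the attached embryo (M pole in the table) and 1 around it (AM pole), and these females had received a blue dye that marks implantation sites. Values given in a row of 5 follow this order of libraries, and the day 5 libraries are called the away site and the embryo site. No age of the females is given in the labels, and the labels do not say whether RNA of several females was pooled. With 1 library per group no difference has a replicate check and no p-value can be given, so each comparison is between libraries.

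Cells enter the cycle when D-type cyclins with Cdk4 or Cdk6, and then cyclin E with Cdk2, phosphorylate the pocket proteins and release E2F factors, which switch on the genes of DNA replication. Origins are licensed by Orc1, Cdc6 and Cdt1 loading the Mcm helicase, and a later wave of transcription, driven by Foxm1 and the Mybl2-containing complex, supplies the proteins of mitosis. In the mouse uterus the luminal epithelium proliferates under estrogen in the first days of pregnancy and stops under progesterone before the blastocyst attaches, while the stroma begins to proliferate.

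Total counts ranged from 15334674 to 19529491 per library, and 3 counts, the floor used here, equal 0.160 to 0.190 CPM. Luminal epithelium markers were high in every library (8 of 8 keratin and adhesion genes over the floor, summed level 3424 to 6821 CPM). Stroma markers summed to 485 to 720 CPM (11 of 11 over the floor in each). Gland markers summed to 1.27 to 13.0 CPM, but only 4 of the 6 listed were among the counted genes. Of these, 1, 2, 1, 3 and 4 were over the floor in library order. The library around the embryo stood apart. Its embryo markers summed to 117 CPM (9 of 9 over the floor) against 5.04 to 13.1 CPM in the other libraries (3 or 4 of 9), and *Pou5f1*, *Nanog*, *Cdx2* and *Fgf4* were at 0 in those 4 libraries and at 68, 10, 22 and 13 counts around the embryo. Its smooth muscle markers summed to 397 CPM against 10.6 to 31.4, with *Des* at 6090 counts against 109 to 369. Its endothelium markers summed to 82.8 CPM against 11.4 to 28.7, but *Cdh5* alone (1229 counts against 48 to 171) gave 72.4 CPM of that, and *Kdr*, *Tie1* and *Emcn* had their lowest levels there (18, 8 and 27 counts). The stroma markers were mixed in the same way, with *Hand2* at 2282 counts against 70 to 389, while *Dcn* (242 against 1288 to 2033), *Lum* (115 against 985 to 1220), *Col3a1* and *Col1a2* were at their lowest. Its leukocyte markers summed to 92.4 CPM against 246 to 357 but also went both ways. *Lyz2* was at 708 counts against 3390 to 5146, while *Cd68* was at 670 against 158 to 308. In such bulk RNA, fewer cells of a type and less RNA per cell cannot be told apart.

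The members were at their highest on day 3 morning. Counts of the 50 genes together took 0.307%, 0.0875%, 0.0934%, 0.117% and 0.103% of the libraries. After TMM scaling the summed level was 2662 CPM on day 3 morning and lay between 957 and 1160 CPM in the 4 later libraries. By gene, 42 members (84.0%) had their highest level on day 3 morning, against 18.2% of all genes that passed the filter. The lowest level fell there for 0 members (all genes 20.55%), on day 4 morning for 15 (30.0%, all genes 18.35%) and on day 4 evening for 18 (36.0%, all genes 14.39%). It fell away from the embryo for 3 (6.0%, all genes 15.55%) and around it for 14 (28.0%, all genes 31.15%), the last being near the share of all genes.

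**Figure D1:**
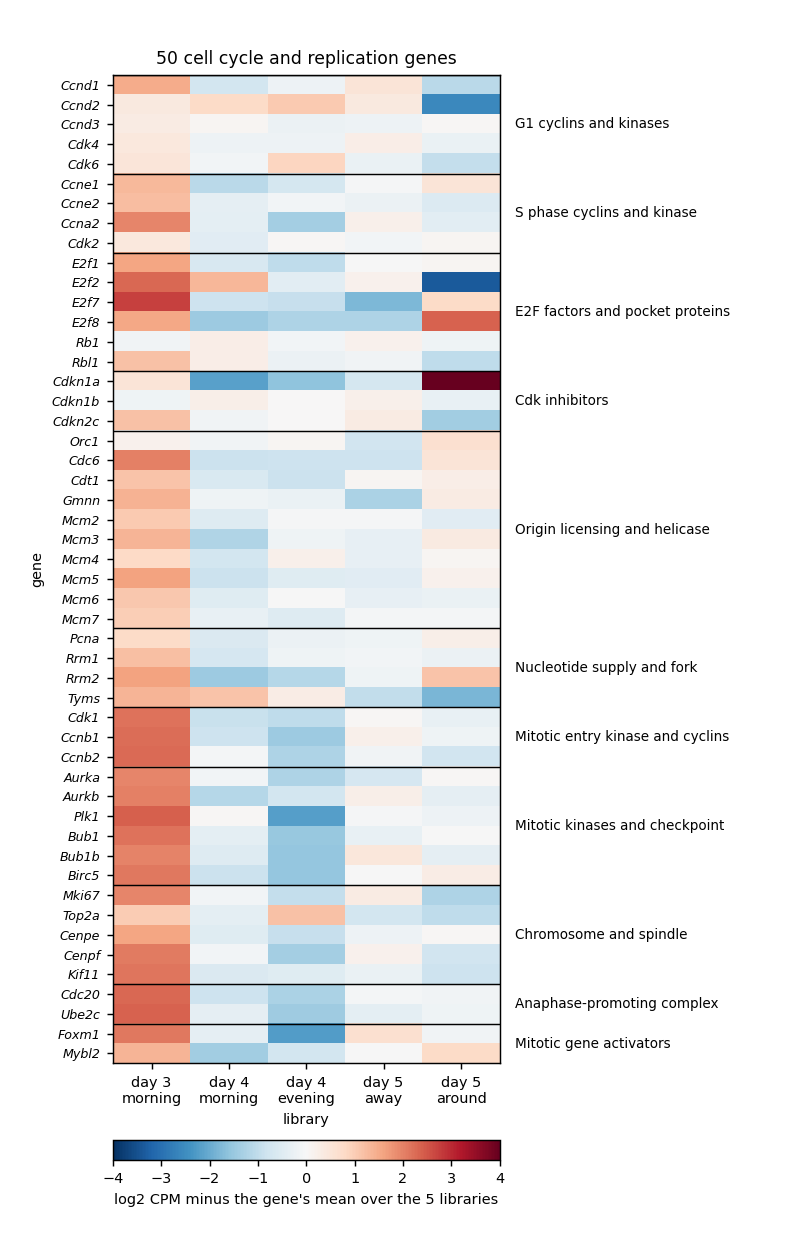
Colours give each gene's log2 CPM minus its own mean over the 5 libraries (columns), with the 50 genes in rows grouped by role and 1 library per column. The day 3 morning column is red for most rows, while *Cdkn1a* and *E2f8* are reddest in the day 5 around column and *Tyms*, *Ccnd2* and *E2f2* are bluest there.

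A gene is called higher or lower here past a difference of 1 in log2 CPM, which is 2-fold. From day 3 morning to day 4 morning 39 of 50 members were called lower, where 11% of all genes were, and 0 were called higher, where 7.96% of all genes were. The median difference of the members was -2.13, and that of all genes 0.035. The 18 mitosis genes were all called lower (median -2.50), as were 12 of the 14 genes of replication (median -1.57). Some regulators of the G1 step lay within 2-fold, with *Ccnd2* at 0.35, *Ccnd3* at -0.24, *Cdk4* at -0.62, the pocket protein gene *Rb1* at 0.42 and the inhibitor gene *Cdkn1b* at 0.40.

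From day 4 morning to day 4 evening the members stayed near where they were as a group, with a median of -0.09. Called higher were 2 members (7.15% of all genes) and called lower were 8 (6.96% of all genes). Both role groups of replication had positive medians and the mitosis genes a negative one. Of the 14 replication genes 1 was called higher and 0 lower (median 0.32), and of the 18 mitosis genes 1 was called higher and 7 lower (median -0.75).

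On day 5 most mitosis genes were above their day 4 evening level, 17 of 18 at the away site and 15 of 18 at the embryo site. Away from the embryo 13 members were called higher (12.7% of all genes) and 3 lower (12.9% of all genes), and 12 of the 13 were mitosis genes. Around the embryo 18 members were called higher (19.3% of all genes) and 6 lower (20.4% of all genes), 10 of the 18 being mitosis genes. The median of the mitosis genes was 1.11 at the away site and 1.13 at the embryo site, and that of the replication genes was 0.001 and 0.49. Both comparisons share the day 4 evening library, in which 13 of the 18 mitosis genes had their lowest level. The marker differences of the embryo site given above stand beside every value of that library, and their part in the results was not tested.

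Between the day 5 libraries 7 members were called higher around the embryo (13.7% of all genes) and 5 lower (14.5% of all genes), which for both directions is near the share of all genes. The median of the members was -0.10. Among the 14 replication genes 4 were higher around the embryo and 0 lower (median 0.41), and among the 18 mitosis genes 0 were higher and 1 was lower (median -0.30). The counts of calls and the median of the members depended on the scaling. Library totals in place of TMM gave 5 members higher and 10 lower with a median of -0.43, where the median of all genes was -0.36. Of the replication genes *Cdc6* and *Rrm2* then fell short of the limit and *Tyms* was called lower. The mitosis genes *Bub1b*, *Cenpf* and *Foxm1* were then called lower too.

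**Figure D2:**
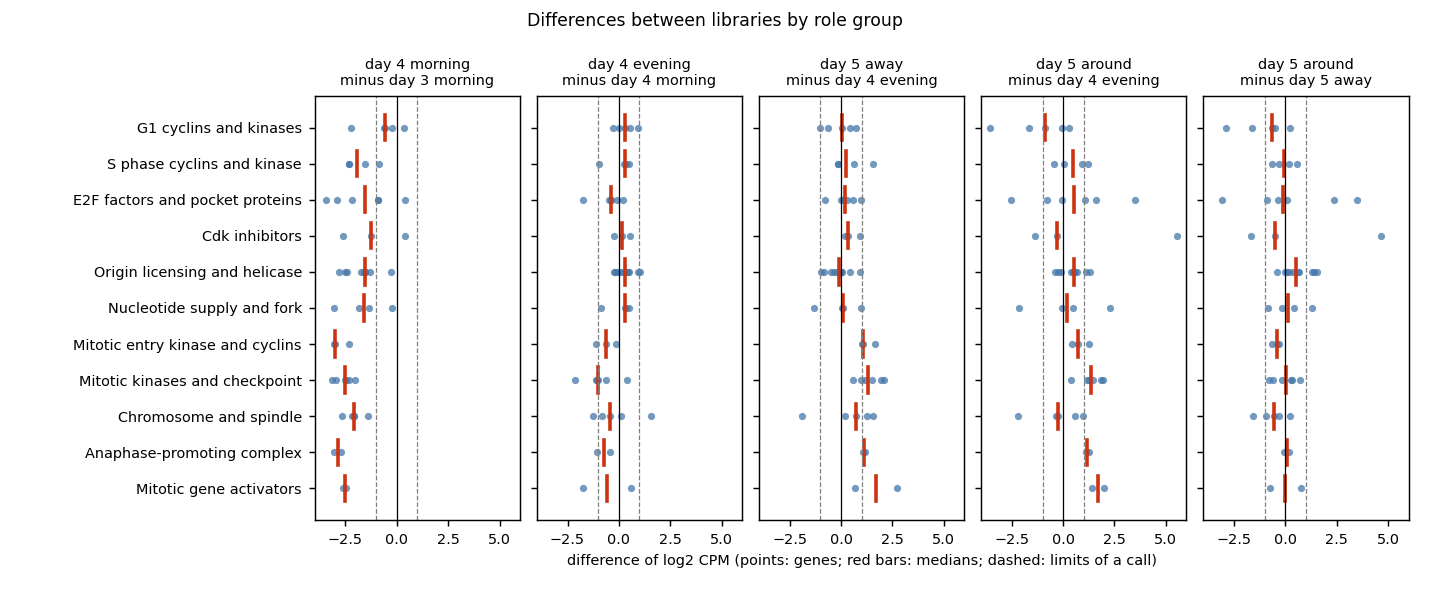
Each point is a gene's difference of log2 CPM between a pair of libraries, 1 panel per comparison, with the genes on rows by role, a red bar at each group's median and dashed lines at the limits of a call. On day 4 morning all points of the mitosis rows lie left of the lower limit, in the panels of day 5 against day 4 evening most of them lie right of 0, and *Cdkn1a* is the point furthest right in both panels of the embryo site.

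The D-type cyclins did not move together. Values in brackets after a log2 difference are its 95% counting interval (Clopper-Pearson, exact, on the ratio of both counts), which covers counting error only. *Ccnd1* (GRCm38 chr7:144929931-144939925, minus strand) had 1187, 257, 328, 641 and 191 counts. It was thus called lower on day 4 morning, at -2.21 [-2.42, -2.03], and lower around the embryo than away from it, at -1.59 [-1.84, -1.37]. *Ccnd2* (chr6:127125709-127151048, minus strand) had 373, 481, 516, 391 and 46 counts. Only the library around the embryo stood out for *Ccnd2*, at -2.89 [-3.42, -2.50] against the other day 5 site. *Ccnd3* kept 754 to 1237 counts and was within 2-fold in every comparison, and of its 2260 bases 15.8% are shared with *Bysl*, a gene on the other strand with 154 to 315 counts. Per length, the ratio of *Ccnd2* to *Ccnd1* in RPKM was 0.207, 1.23, 1.03, 0.401 and 0.158.

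*Cdk4*, the G1 kinase that the D-type cyclins bind, had the highest mean level of the members on the RPKM scale (116) and 2104 to 3600 counts. All its differences were within 2-fold, the largest being -0.62 from day 3 to day 4 morning. *Cdk6*, the other kinase of that step, had the lowest mean level of the members on that scale (0.703), with 39, 26, 45, 25 and 14 counts in library order. Its fall of 1.04 on the log2 scale from day 4 evening to the day 5 site away from the embryo rests on 45 and 25 counts [-1.87, -0.36], and under library totals the difference was -0.81, inside the limit.

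Of the cyclins and kinase that act at the start of and during S phase, 3 of 4 were called lower on day 4 morning. *Ccna2*, whose product works in S phase and at the entry to mitosis, had 1152, 227, 102, 364 and 211 counts. Its level followed that of the mitosis genes, with the lowest value on day 4 evening and a rise away from the embryo of 1.57 [1.26, 1.91]. *Ccne1* had 231, 45, 51, 96 and 129 counts, and against day 4 evening it was called higher around the embryo (1.20 [0.75, 1.73]) and lay short of the limit away from it (0.64 [0.15, 1.18]). *Cdk2*, the kinase partner of cyclins E and A, had 470 to 842 counts and no difference past 2-fold. *Ccne2* had 105, 35, 37, 40 and 29 counts, but 53.9% of its 3217 bases are shared with *Ints8*, a gene on the other strand that had 219 to 341 counts, and 13.5% of the bases of *Ccna2* are shared with *Exosc9*. The strand setting of the counting is not given in the sources used here, so reads in these stretches cannot be told apart.

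The E2F factors split on day 5. *E2f1*, a transcriptional activator of S phase genes, had 289, 63, 42, 101 and 98 counts, and it was called lower on day 4 morning (-2.18) and higher around the embryo than on day 4 evening (1.08 [0.58, 1.67], and 0.98 under library totals). *E2f2*, another activator, had 259, 136, 35, 63 and 5 counts. It was called lower on day 4 evening (-1.73 [-2.36, -1.23]) and was near the floor around the embryo, where it was 3.08 below the other day 5 site on the log2 scale [-5.18, -2.21].

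The atypical factors *E2f7* and *E2f8*, which repress E2F target genes, were called higher around the embryo than away from it. In that comparison *E2f2* was called lower and *E2f1* was at 0.10. *E2f8* (chr7:48866429-48881041, minus strand) had 277 counts on day 3 morning, 35, 36 and 43 in the next libraries, and 465 around the embryo. It was 3.51 [3.13, 4.07] higher around the embryo than away from it, and the level there, 27.4 CPM, was above the 15.7 CPM of day 3 morning. *E2f7* had 283, 24, 20, 13 and 69 counts and was 2.37 [1.69, 3.53] higher around the embryo than away from it, at 4.06 CPM against 16.0 CPM on day 3 morning. These libraries also differed in embryo and smooth muscle markers and, in both directions, in stroma, endothelium and leukocyte markers, whose part in the result was not tested.

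The pocket protein genes differed in range, 0.44 on the log2 scale for *Rb1* and 2.17 for *Rbl1*. *Rb1* had 391 to 576 counts, all differences lying within 2-fold. *Rbl1* had 649, 351, 218, 281 and 137 counts, with a difference of -0.90 from day 3 to day 4 morning and of -0.88 around the embryo against away from it, neither past the limit, and was lowest around the embryo.

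*Cdkn1a*, which encodes the Cdk inhibitor p21, had the widest range of all 50 members, 6.09 on the log2 scale. The gene (chr17:29090986-29100722) had 329, 52, 67 and 151 counts up to the away site and 3498 counts at the embryo site. Its level was thus lower on day 4 morning by 2.63 on the log2 scale [-3.13, -2.25] and 25.2-fold higher around the embryo than away from it (4.66 [4.44, 4.92]). *Cdkn1b*, which encodes p27, had 434, 579, 437, 594 and 378 counts and no difference past 2-fold. The ratio of *Cdkn1a* to *Cdkn1b* in CPM was 0.758, 0.0898, 0.153, 0.254 and 9.25. *Cdkn2c*, an inhibitor of Cdk4 and Cdk6, had 417, 173, 168, 250 and 69 counts. It was lower around the embryo than away from it by 1.69 on the log2 scale [-2.12, -1.32], where *Cdkn1b* was at -0.51 [-0.70, -0.32]. The part of the marker differences of that library in these values was not tested.

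**Figure D3:**
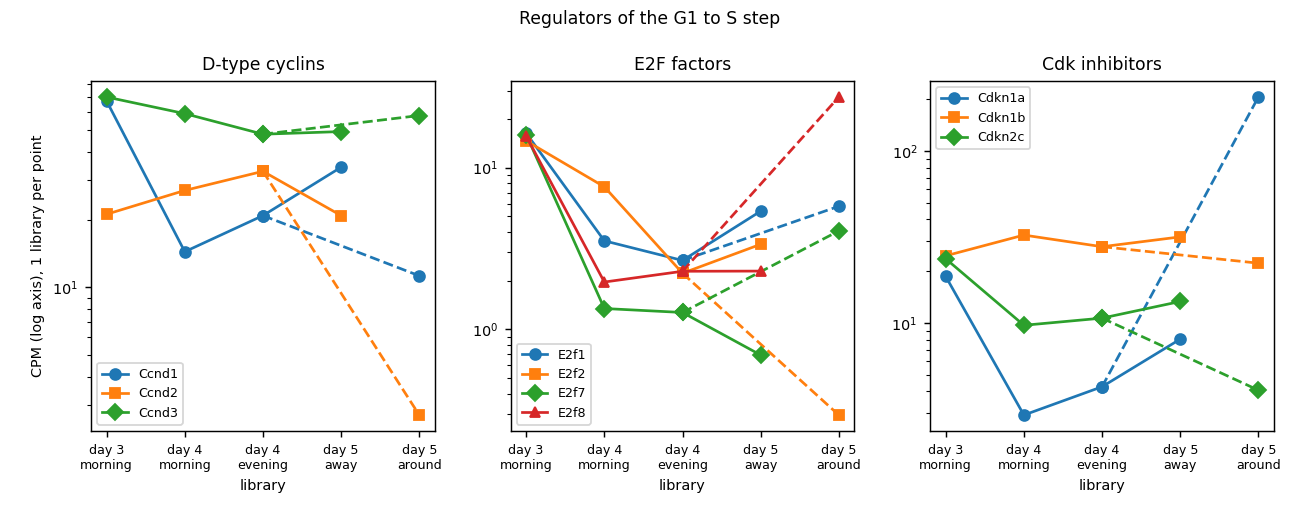
Levels in CPM on a log axis are plotted for the D-type cyclins, E2F factors and Cdk inhibitors, 1 library per point, with solid lines to the day 5 site away from the embryo and dashed lines from day 4 evening to the site around it. *Cdkn1a* and *E2f8* have their highest level around the embryo, and *Ccnd2*, *E2f2* and *Cdkn2c* their lowest.

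In the RefSeq promoter windows of GRCm38.p6, which run from 250 bases before to 50 bases after a gene's start, 41 of the 50 members had at least 1 window and 46 windows were found. No window was found in the table for *Foxm1*, *Rb1*, *Ccne2*, *Ccnd1*, *Ccnd2*, *Mcm4*, *Aurkb*, *Gmnn* or *Ccna2*. Searched on both strands were the CCAAT box (CCAAT), the cell cycle homology element (TTTGAA) and an E2F motif, written as TTCCCGC in its first form, TTCGCGC in its second form, TTGGCGC in its next form and TTGCCGC in its last form. An E2F motif was found in 10 of 13 windows of the replication genes (76.9%), in 3 of 16 windows of the mitosis genes (18.8%), in 9.57% of all 32851 windows and in 16.1% of the 12266 windows of genes that passed the filter. The cell cycle homology element was found in 1 of 13 replication windows (7.69%), 11 of 16 mitosis windows (68.8%), 17.9% of all windows and 11.8% of those of the genes that passed the filter. The CCAAT box was found in 10 of 13 (76.9%), 14 of 16 (87.5%), 37.4% and 37.3%, in the same order. Base composition was not matched, an E2F motif overlapped a CCAAT box in 1 window of each group, and a match of letters is neither a bound site nor a cause.

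**Figure D4:**
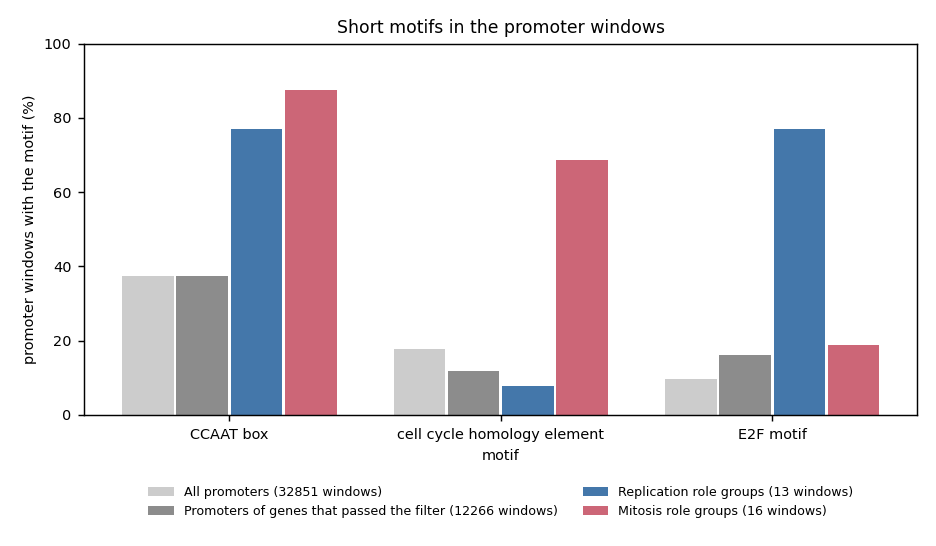
Bars give the percentage of promoter windows that hold each of the 3 motifs on either strand, for all promoters, for genes that passed the filter and for the replication and mitosis members. The E2F bar is at 76.9% for replication and 18.8% for mitosis genes, and the cell cycle homology element is at 7.69% and 68.8%.

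The last 120 bases before the start of a pair of replication genes are shown because they hold both a CCAAT box and E2F motifs. They were chosen after the motif positions were seen. Capitals mark the CCAAT box or its complement ATTGG and the E2F motifs on either strand, which overlap as TTGGCGCGAA in *Mcm6*. *Mcm6* lies at chr1:128359706-128359825 (minus strand) and *Rrm1* at chr7:102441575-102441694 (plus strand), each read 5′ to 3′ along its gene.
Mcm6: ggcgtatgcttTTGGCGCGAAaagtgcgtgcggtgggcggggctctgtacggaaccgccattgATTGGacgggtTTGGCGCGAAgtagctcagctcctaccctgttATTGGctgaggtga
Rrm1: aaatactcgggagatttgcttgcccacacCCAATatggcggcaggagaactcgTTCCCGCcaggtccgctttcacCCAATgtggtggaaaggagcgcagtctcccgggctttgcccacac

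The Mcm helicase genes, which encode the ring that unwinds DNA at the fork, were called lower from day 3 to day 4 morning in 6 of 6 cases. *Mcm6*, whose promoter is shown above, had 1583 counts on day 3 morning, 534 and 664 on day 4, 631 away from the embryo and 601 around it. *Mcm3* had 949, 165, 298, 313 and 457 counts, and *Mcm5* 740, 136, 155, 190 and 265. Their falls on day 4 morning were 1.58, 2.52 and 2.44 on the log2 scale. *Mcm3* then rose on day 4 evening by 1.02 [0.76, 1.32], while *Mcm4* was at 0.92 and *Mcm2*, *Mcm5* and *Mcm6* at 0.36 to 0.49, short of the limit, and *Mcm7* was at -0.19. *Mcm2*, *Mcm4* and *Mcm7* had 1398, 1118 and 838 counts on day 3 morning and 268 to 700 counts in the later libraries. None of the 6 was past the limit between the day 5 libraries, where the differences ran from -0.41 for *Mcm2* to 0.69 for *Mcm3*.

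The genes that load and license the helicase differed more between the day 5 sites. *Cdc6*, a loader, had 306, 42, 38, 45 and 103 counts and was 1.30 [0.82, 1.88] higher around the embryo than away from it. *Gmnn*, which encodes the Cdt1 inhibitor geminin, had 507, 173, 142, 85 and 232 counts and was 1.57 [1.23, 1.97] higher. *Orc1*, a subunit of the origin recognition complex, had 180, 148, 152, 100 and 241 counts and was 1.39 [1.07, 1.76] higher. *Orc1* was also the licensing gene within 2-fold from day 3 to day 4 morning (-0.29 [-0.62, 0.02]), and its highest level was around the embryo. *Cdt1*, the loader that geminin blocks, had 431, 128, 96, 217 and 223 counts, with little between the day 5 sites (0.18 [-0.09, 0.46]). Under library totals the value of *Cdc6* was 0.97, short of the limit.

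Nucleotide supply and fork genes showed the most unlike courses among the replication members. *Rrm2*, which encodes the regulated subunit of ribonucleotide reductase, had 1416, 171, 184, 434 and 972 counts. After its fall of 3.05 on the log2 scale it was 2.28 [2.06, 2.53] above day 4 evening around the embryo and 1.30 [1.14, 1.47] above the other day 5 site (0.96 under library totals). *Rrm1*, the large subunit, had 1650, 460, 565, 717 and 584 counts, and its only difference past the limit was that of -1.85 on day 4 morning.

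*Tyms*, thymidylate synthase (chr5:30058200-30073625), went down step by step instead. It had 2953, 2570, 1258, 609 and 306 counts. Its level was within 2-fold from day 3 to day 4 morning (-0.22 [-0.29, -0.14]) and it was called lower than on day 4 evening at both day 5 sites, at -1.30 [-1.44, -1.16] and -2.14 [-2.33, -1.97]. *Pcna*, the sliding clamp of the fork, had 1735, 693, 780, 967 and 1160 counts and was called lower on day 4 morning (-1.34). The annotation lists processed copies of *Tyms*, *Pcna*, *Ccnb1*, *Ccnb2* and *Ccnd3* elsewhere in the genome, and how reads shared with them were counted is not given in the sources used here.

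**Figure D5:**
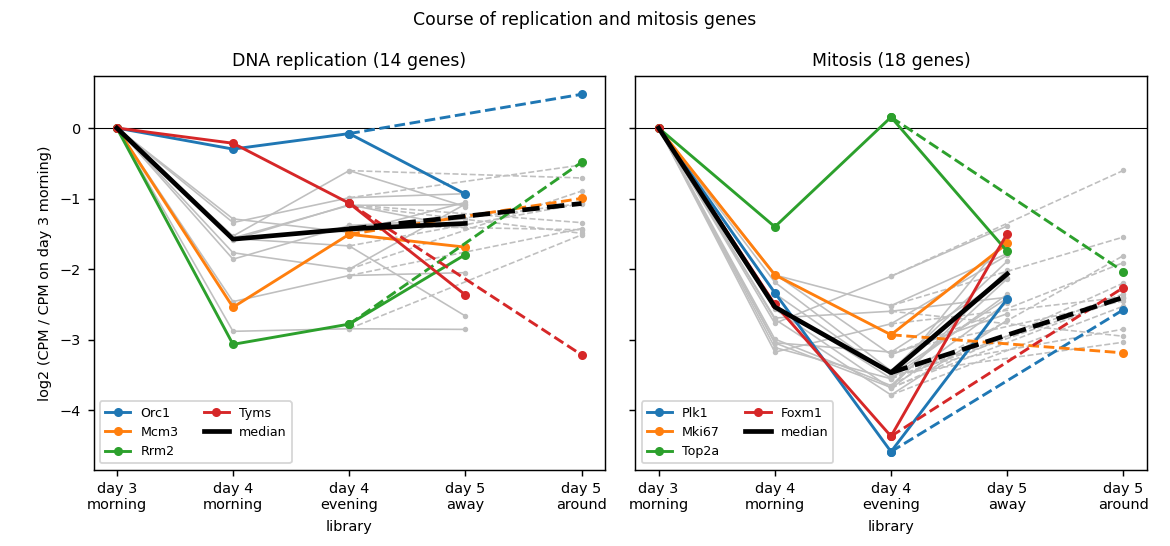
Each line is a gene's log2 ratio of CPM to its own value on day 3 morning, with solid lines to the day 5 site away from the embryo, dashed lines from day 4 evening to the site around it, and the median in black. The median of the 18 mitosis genes is lowest on day 4 evening, that of the 14 replication genes is lowest on day 4 morning, and *Top2a* and *Tyms* leave the course of their groups.

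The last 120 bases before the start of 3 mitosis genes are shown because they hold a CCAAT box together with the cell cycle homology element, and they too were chosen after the motif positions were seen. Capitals mark the CCAAT box, the cell cycle homology element and their complements. *Cdk1* lies at chr10:69352913-69353032 (minus strand), *Cdc20* at chr4:118437344-118437463 (minus strand) and *Ube2c* at chr2:164769809-164769928 (plus strand), each read 5′ to 3′ along its gene.
Cdk1: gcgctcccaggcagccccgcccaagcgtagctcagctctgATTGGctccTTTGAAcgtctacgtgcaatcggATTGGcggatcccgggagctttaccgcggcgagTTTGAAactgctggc
Cdc20: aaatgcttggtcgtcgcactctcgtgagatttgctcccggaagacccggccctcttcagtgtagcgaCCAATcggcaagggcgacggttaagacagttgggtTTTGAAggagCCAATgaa
Ube2c: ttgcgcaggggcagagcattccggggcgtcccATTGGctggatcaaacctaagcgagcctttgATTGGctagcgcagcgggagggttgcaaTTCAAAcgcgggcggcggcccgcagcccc

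The mitotic entry kinase and its cyclins fell the most from day 3 to day 4 morning by group median (-3.03). *Cdk1* had 1540, 189, 152, 375 and 271 counts. *Ccnb1* had 1935, 237, 135, 510 and 351 counts, and *Ccnb2* 1262, 251, 100, 252 and 148. All 3 were lowest on day 4 evening and were called higher away from the embryo, by 1.04 [0.77, 1.33], 1.65 [1.39, 1.95] and 1.07 [0.74, 1.43]. Around the embryo *Ccnb1* alone of the 3 passed the limit over day 4 evening (1.26), with *Cdk1* at 0.72 and *Ccnb2* at 0.45. Between the day 5 sites all 3 lay within 2-fold, from -0.62 to -0.32.

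Among the mitotic kinases and checkpoint genes *Plk1* had the widest range, 4.47 on the log2 scale. *Plk1* (chr7:122159437-122169875), a kinase of mitotic entry and exit, had 539, 108, 20, 107 and 87 counts. It fell again from day 4 morning to day 4 evening, by 2.15 on the log2 scale [-3.02, -1.55], and was 2.07 [1.47, 2.93] and 1.92 [1.30, 2.79] higher at the day 5 sites. *Birc5*, which encodes survivin of the chromosomal passenger complex, had 1407, 179, 100, 340 and 386 counts, and *Aurkb*, the kinase of that complex, 706, 79, 92, 215 and 129. The pair parted around the embryo, where *Birc5* was 1.82 [1.52, 2.17] and *Aurkb* 0.37 [-0.02, 0.78] above day 4 evening.

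The spindle checkpoint genes *Bub1* and *Bub1b* had 30 counts each on day 4 evening. In library order *Bub1* had 434, 74, 30, 83 and 91 counts and *Bub1b* 393, 70, 30, 143 and 74, both being called lower on day 4 morning and higher at each day 5 site than on day 4 evening. Under library totals without Rn45s and Lars2, *Bub1b* at the embryo site was at 0.98, inside the limit. *Aurka*, the centrosome kinase, had 519, 125, 50, 89 and 133 counts and was called higher only around the embryo (1.27 [0.82, 1.80]), with 0.56 away from it. None of the 6 genes of the group was past the limit between the day 5 sites.

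After day 4 morning *Top2a* went against most of the other mitosis genes. *Top2a* (chr11:98992947-99024189), the topoisomerase that untangles DNA before chromosomes separate, had 2192, 840, 2176, 694 and 515 counts. It rose on day 4 evening by 1.55 [1.44, 1.67], where 14 of the 18 mitosis genes were lower, 7 of them past the limit. Against day 4 evening it was called lower at both day 5 sites, at -1.90 [-2.03, -1.78] and -2.18 [-2.33, -2.05]. Of the 18 mitosis genes it was the 1 gene highest on day 4 evening rather than day 3 morning. These calls rest on a single day 4 evening library.

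The other chromosome and spindle genes differed in where they were lowest, *Cenpf* and *Cenpe* on day 4 evening and *Mki67* and *Kif11* around the embryo. *Mki67*, the proliferation antigen, had 2273, 543, 266, 777 and 240 counts. It was 1.29 higher away from the embryo than on day 4 evening and -0.26 [-0.52, 0.00] around it, so that it was the 1 mitosis gene called lower around the embryo than away from it (-1.54 [-1.77, -1.34]). *Cenpf*, a kinetochore protein gene, had 1035, 230, 85, 297 and 138 counts, with -0.95 between the day 5 sites and -1.29 under library totals. *Kif11*, a spindle motor, had 997, 156, 147, 201 and 124 counts and moved past the limit only on day 4 morning (-2.68), with 0.09 on day 4 evening and then -0.35 around the embryo. *Cenpe*, a kinetochore motor, had 507 counts on day 3 morning and 79 to 167 later.

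The genes of the anaphase-promoting complex, which triggers the exit from mitosis, were both called lower on day 4 morning, at -2.70 and -3.06. *Ube2c*, its ubiquitin-conjugating enzyme, had 2452, 379, 159, 394 and 410 counts, and *Cdc20*, its activator, 487, 57, 37, 101 and 88. Both were called higher at each day 5 site than on day 4 evening, by 1.05 to 1.25 on the log2 scale, with *Cdc20* at the embryo site at 0.94 under library totals without Rn45s and Lars2. Between the day 5 sites they were at 0.20 [-0.00, 0.41] and -0.05 [-0.48, 0.37].

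Of the activators of mitotic genes, *Foxm1* had 324, 58, 14, 122 and 65 counts. The gene (chr6:128362994-128375886) fell by 1.74 [-2.83, -1.01] on day 4 evening and was 2.72 [2.07, 3.78] higher away from the embryo, the largest rise of a member in that comparison. *Mybl2* had 101, 15, 21, 41 and 64 counts and did not share the low value on day 4 evening. Both were called higher around the embryo than on day 4 evening, at 1.97 [1.26, 3.06] and 1.42 [0.77, 2.29], and away from the embryo *Mybl2* was at 0.67 [-0.08, 1.54].

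Summed over genes, the level of the mitosis members relative to the replication members in CPM was 1.21, 0.576, 0.632, 0.818 and 0.522. The day 4 evening value includes *Top2a*, which took 138 of the 234 CPM of the mitosis genes there. *Tyms* took 143.9 of the 360.5 CPM of the replication genes on day 4 morning and 79.85 of 370.6 on day 4 evening. The day 4 ratios thus depend in large part on single genes.

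Other genes of replication and mitosis, taken from wider lists of these pathways, were mostly lower on day 4 morning in the same libraries. The lists were chosen with earlier results of these data known. Of 55 further S phase genes 41 were called lower from day 3 to day 4 morning and 0 higher (median -1.60), and of 52 further mitosis genes 45 were called lower and 0 higher (median -2.33). Of all genes 11% were called lower and 7.96% higher. Among those with a mean level of 5 CPM or more, large falls were seen in *Tk1*, thymidine kinase (767, 92, 75, 238 and 78 counts), and in the mitosis genes *Pbk* (2107, 161, 141, 245 and 214 counts) and *Kif2c* (280, 20, 25, 82 and 41 counts). At the other end lay *Casp8ap2* at -0.07 and *Pola1* at -0.29 of the S phase list and *Pttg1* at 0.40 and *Incenp* at -0.34 of the mitosis list.

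On day 4 evening 6 of the further S phase genes were called higher than on day 4 morning and 0 lower, and 13 of the further mitosis genes were called lower and 0 higher. Of all genes 7.15% were called higher then and 6.96% lower. Away from the embryo on day 5, 20 of the mitosis list were called higher than on day 4 evening and 2 lower, and 3 of the S phase list higher and 4 lower (all genes 12.7% and 12.9%). Around the embryo these counts were 13 higher and 4 lower for mitosis and 7 and 7 for S phase (all genes 19.3% and 20.4%). The S phase counts of day 5 lay below the shares of all genes. Between the day 5 sites 1 mitosis gene was called higher around the embryo (*Ccnf*, 1.14) and 5 lower, with *Aspm* lowest at -1.96 and *Nuf2* next at -1.46. There 2 S phase genes were called higher and 2 lower, the latter *Tk1* at -1.44 and *Clspn* at -1.21. All these counts lay below the shares of all genes, 13.7% higher and 14.5% lower. The largest positive values of S phase genes with a mean level of 5 CPM or more were those of *Pold3* at 0.89 and *Prim2* at 0.88, and next to *Ccnf* in the mitosis list was *Cdc25a* at 0.76.

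Other genes that restrain the cycle were called in both directions, and *Cdkn2a* was the 1 gene of the 21 listed that did not pass the filter. Of 20 that passed the filter, day 4 morning had 2 called higher and 1 lower than day 3 morning (median 0.02), where 7.96% and 11% of all genes were. The antiproliferative genes *Btg1* and *Btg2* were the higher ones, *Btg1* with 4636, 11671, 15557, 17427 and 37081 counts and *Btg2* with 2136, 4537, 5723, 9306 and 23954. Both were higher around the embryo than away from it as well, by 1.23 and 1.51 on the log2 scale. *Gadd45b* was the gene called lower on day 4 morning (-1.88), and *Lin9* was at -0.96. *Gadd45a*, a stress-induced growth arrest gene, had 295, 204, 2398, 4374 and 2487 counts and was -0.67 between the day 5 sites. *Rbl2*, the third pocket protein gene, had 485, 597, 415, 528 and 127 counts and was the brake called lower around the embryo (-1.90).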

How the data were processed

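RNA-seq libraries of laser-microdissected luminal layers were prepared with a SMART-seq v.4 kit, and paired-end reads were aligned to GRCm38/mm10 with HISAT2. The authors deposited raw read counts per gene, made with featureCounts of Subread 2.0.0 and not normalized, in 1 table with gene coordinates and lengths. The HISAT2 version, the gene annotation and the strand and multi-mapping settings are not given in the sources used here. No column belonged to another sample.

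Counts were scaled by TMM (edgeR 4.0.16, R 4.3.3) and given as log2 CPM with a prior count of 2. Kept were genes whose mean reached 1 CPM, and a gene was called past a log2 difference of 1. Intervals of count ratios are exact Clopper-Pearson intervals (scipy 1.17.1) and cover counting error only, since reads without molecular identifiers are not independent molecules. RPKM used the deposited gene lengths. Python 3.11.15, pandas 2.3.3, numpy 2.4.6 and matplotlib 3.10.9 were used. The scaling was also run on simulated counts in which few genes changed, as many up as down. That setting cannot show how TMM acts where many genes differ, as at the embryo site. Alternatives were library totals, size factors of DESeq2 1.42.0, no filter, a filter at 5 CPM, a prior count of 0.5, a limit of 2 and a call whose counting interval also lies on that side of 0. Library totals without Rn45s and Lars2, which took 15.0% to 23.2% of the counts, and the removal of the library around the embryo were chosen after seeing the data.

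The members and all lists were chosen with earlier results of these data known. Counts in each library were given for at least the 3 members of each role group with the widest range and for members that went against their group past the limit. From the wider lists the 2 largest falls and the 2 largest rises (or values nearest to a rise) on day 4 morning and around the embryo were named where the mean reached 5 CPM. A gene that this rule names is not reported here. Promoter windows are those of RefSeq (GRCm38.p6).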

Additional observations from a re-analysis of the deposited data

Results flagged for a closer look

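Members whose day 5 libraries lay on opposite sides of day 4 evening, with counting intervals that leave out 0 on both sides, were 5 of 50 (10%), against 10.4% of all genes. A stricter criterion, past the limit of a call in opposite directions, had found 0 members, and this one was set after that was seen. Both differences share the day 4 evening library, and the difference between the sites was not tested, since each site has 1 library. *Ccnd1* was at 0.71 away from the embryo and -0.88 around it. *Cdkn2c* was at 0.32 away from it and -1.37 around it, and *Cdkn1b* at 0.19 and -0.32. The licensing gene *Orc1* was at -0.84 and 0.55, and *Gmnn* was at -0.97 and 0.59, in the same order.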

How the results depend on the processing

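Of 126 values of the 16 member counts and medians under the alternatives, 114 stayed within the limits set and 12 moved. A count was taken as unchanged up to a ratio of 1.5, and a median within an interval of the ordered member differences. The limit for counts is wide, since 18 members called higher away from the embryo under library totals, against 13 under TMM, lie within it. Under library totals the median from day 3 to day 4 morning was -2.46, where the median of all genes moved to -0.29. Around the embryo against away from it, 10 members were called lower with a median of -0.43 under library totals (all genes -0.36), and 10 with a median of -0.41 under library totals without Rn45s and Lars2 (all genes -0.33). With a limit of 2 in place of 1, 0 members were called higher and 1 lower on day 4 evening, 2 higher and 0 lower away from the embryo, 3 higher around it, and 3 higher and 2 lower between the day 5 sites. Between the day 5 sites 9 members short of the limit changed sign under library totals. Members past the limit of 1 could not change sign through a shift of the size seen there, with the median of all genes at -0.36. Without the library around the embryo the remaining comparisons gave the same counts of calls. No paired analysis was possible because each group holds 1 library, and for the same reason no replicate could be left out. At 3 counts the floor was 0.160 to 0.190 CPM, so the 5 counts of *E2f2* around the embryo limit that value.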

Other observations

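Chosen after their values were seen, the 6 further S phase genes called higher on day 4 evening than on day 4 morning were *Gins1* (2.05), *Exo1* (1.70), *Cdca7* (1.22), *Wdr76* (1.18), *Pold1* (1.04) and *Atad2* (1.04), whose products work at the helicase, in repair or at replicating chromatin. The brakes called higher then were *Gadd45a* (3.72), *Gadd45b* (1.15) and *Cdkn1c* (1.07), which encodes the Cdk inhibitor p57. Of all genes 7.15% were called higher in that comparison.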
